A study of Mus musculus with 40 samples.

Results

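The nuclear genes for the subunits of the oxidative phosphorylation machinery were followed in bone marrow-derived macrophages (BMDMs), which are macrophages grown in culture from bone marrow, during their response to lipopolysaccharide (LPS), a bacterial product sensed by the receptor TLR4. Genes were taken by their symbols in the deposited expression table: names that begin with Ndufa, Ndufb, Ndufc, Ndufs, Ndufv, Uqcr, Cox4 to Cox8 or Atp5, and *Sdha*, *Sdhb*, *Sdhc*, *Sdhd*, *Cyc1* and *Cycs*. Of 101 such symbols, 8 assembly factors of the Ndufaf series and 2 names with the pseudogene mark -ps were left out. Of the remaining 91, 10 lay below a mean level of 2.32 (log2 of 5) over the libraries, and 81 of the 27179 genes of the table were kept. The 10 below the limit include *Cox4i2*, *Cox8b* and *Ndufa4l2*, isoforms known from lung, muscle or hypoxic cells, with mean levels of 2.21, −2.4 and −1.82, and *Uqcr11*, a small subunit of complex III, at −2.32. The cause of the low value of *Uqcr11* was not tested, and the value need not mean that its mRNA was absent. All values are rlog values, a log2 scale that the authors made with DESeq2, corrected for library size and shrunken where counts are low, and every difference below is a difference of rlog values.

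Oxidative phosphorylation takes electrons from NADH (complex I) and succinate (complex II) through complex III and cytochrome c to oxygen at complex IV, and the proton gradient that results drives ATP synthase (complex V). Complexes I, III, IV and V combine subunits of nuclear and mitochondrial genes, whereas complex II is nuclear only. Macrophages activated by LPS are known to turn toward glycolysis and to use their respiratory chain less for ATP, with complexes II and I as sources of reactive oxygen species. The 81 genes comprise 36 of complex I, 4 of complex II, 8 of complex III, 15 of complex IV (with *Ndufa4*, which is a subunit of that complex despite its name), 17 of complex V and *Cycs*, the gene for cytochrome c. The complex V names include *Atp5s*, which encodes a factor related to ATP synthase and not a subunit of its core.

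BMDMs came from 4 wildtype (WT) and 4 *Cpeb4*-/- male adult mice, all of mixed C57BL/6J and 129 background. The *Cpeb4*-/- (KO) mice lack the RNA-binding protein CPEB4 in the whole body. Cells were left untreated (0 hr) or given 10 ng/ml LPS for 1, 3, 6 or 9 hr, and each mouse gave cells to all 5 time points, so that 40 libraries in 10 groups of 4 resulted. Each of 2 batches held 2 mice of each genotype, and 0 of the 6 cages held both genotypes, so cage and genotype cannot be told apart. WT mice carry the numbers 25, 69, 87 and 88 and KO mice the numbers 2, 3, 55 and 62, with mice 25, 88, 3 and 62 in batch 1. The rlog value of *Cpeb4* itself, which sums all exons, lay from 10.09 to 10.67 in WT and from 8.74 to 9.66 in KO at 6 hr (difference −1.27, limma adjusted p = 0.00116). At the other times the genotypes overlapped (adjusted p from 0.358 to 0.617), and the genotypes are taken as labelled. All 8 macrophage markers were above the limit in every group, with a summed level from 18.65 to 19.49 on the log2 scale, while all 6 lymphocyte markers were below it (2.59 to 3.37). The summed level of 8 neutrophil markers, of which 3 to 5 were below the limit, lay from 6.16 to 7.12 at 0 hr and from 7.33 to 8.15 at 9 hr, and that of 5 stromal markers from 3.02 to 3.57 and from 4.43 to 6.09; their part in the changes with LPS was not tested. In such bulk samples, fewer cells of a type and less RNA per cell cannot be told apart.

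The subunit genes have short transcripts, and the libraries differed with transcript length. The longest coding transcript of the 81 genes had a median of 908 nt (371 to 4715), against 3088 nt for the 11973 tested genes with a known length, and 58 of the 81 were under 1500 nt, against 14.1% of tested genes. The median subunit gene deviated from its group mean by −0.24 to 0.30 over the 40 libraries, and the sign was that of 1632 other genes under 1500 nt in 39 of the 40. KO mouse 2 at 9 hr stood highest, with a median deviation of 0.30 over the subunits and 0.22 over the other short genes. In WT at 1 hr, mice 25 and 69 stood at −0.20 and −0.24, and mice 87 and 88 at 0.30 and 0.14, with −0.14, −0.15, 0.20 and 0.10 over the other short genes. In WT at 3 hr, mouse 88 stood at −0.22, and mouse 87 at 0.23. Results are therefore also given after removal of each library's trend with transcript length, which was fitted to tested genes outside the 81. This step, chosen after the data were seen, brought the range of the deviations to −0.09 to 0.10 and the median SD of a subunit gene within a group from 0.12 to 0.06.

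**Figure D1:**
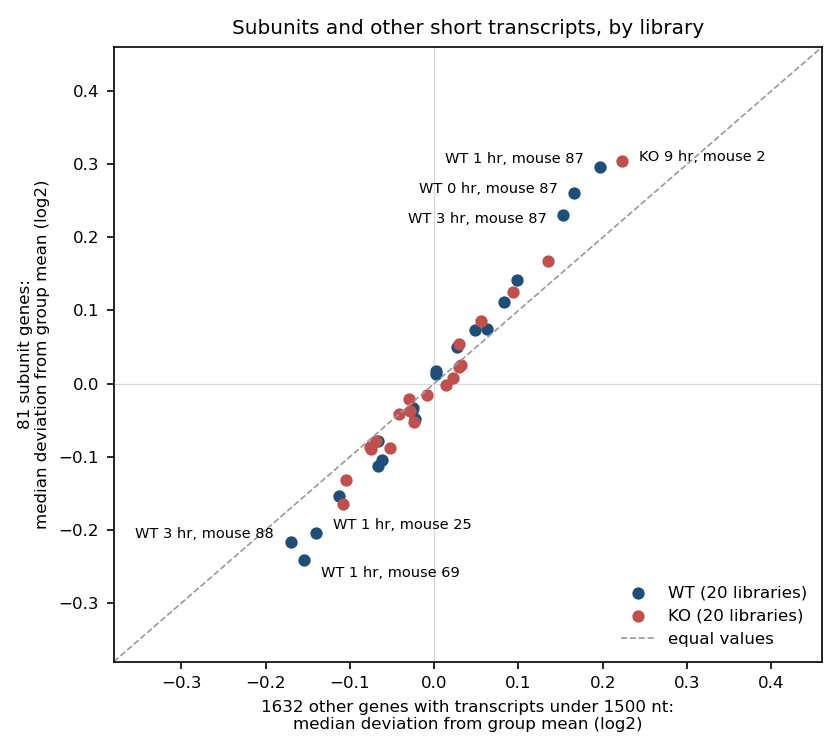
Each point is 1 of 40 libraries. The vertical axis gives the median deviation of the 81 subunit genes from the mean of their group of 4 (log2), and the horizontal axis the same for 1632 other genes with transcripts under 1500 nt. Libraries fall along a band slightly steeper than the dashed line of equal values, from −0.24 (WT, 1 hr, mouse 69) to 0.30 (KO, 9 hr, mouse 2) on the vertical axis.

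Sequences are shown for *Cycs* and *Ndufs4*, which rose, and *Cox7a2l* and *Ndufb11*, which fell, all with a direction that held under each scaling, to show where letters of known mitochondrial gene regulators occur. They are from RefSeq (GRCm38.p6, which is mm10) and run 5′ to 3′ on the strand of the gene, up to the base before the start that RefSeq gives. *Cycs* lies on chromosome 6 from 50562563 to 50566538 on the minus strand, *Ndufs4* on chromosome 13 from 114287795 to 114388258 on the minus strand, *Cox7a2l* on chromosome 17 from 83501918 to 83517330 on the minus strand and *Ndufb11* on chromosome X from 20615326 to 20617619 on the minus strand. These gene coordinates are from GENCODE M21. Its outermost starts differ from the RefSeq starts used for the windows of *Cycs*, *Ndufs4* and *Cox7a2l*, so that the window of *Cox7a2l* lies inside its GENCODE gene. For *Ndufb11* the starts are the same. For *Ndufs4*, a stretch of 26 bases inside the transcript is shown that starts 24 bases after the RefSeq start. Capitals mark GCATGCGC, core letters that NRF1 can bind, and AAGATGGCG, letters that YY1 can bind. Neither of these nor the other motifs named below occurs in the windows of *Cox7a2l* and *Ndufb11*. The letters AAGATGGCG contain ATG, the letters of a start codon, and binding of either factor at these places was not tested.
Cycs, chr6:50566570-50566819: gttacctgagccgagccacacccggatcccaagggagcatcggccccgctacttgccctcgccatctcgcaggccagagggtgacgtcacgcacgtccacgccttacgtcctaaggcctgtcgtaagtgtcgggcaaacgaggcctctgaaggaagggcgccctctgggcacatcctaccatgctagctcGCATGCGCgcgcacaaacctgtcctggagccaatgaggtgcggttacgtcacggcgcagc
Ndufs4, chr13:114388045-114388070: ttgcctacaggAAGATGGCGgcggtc
Cox7a2l, chr17:83514334-83514583: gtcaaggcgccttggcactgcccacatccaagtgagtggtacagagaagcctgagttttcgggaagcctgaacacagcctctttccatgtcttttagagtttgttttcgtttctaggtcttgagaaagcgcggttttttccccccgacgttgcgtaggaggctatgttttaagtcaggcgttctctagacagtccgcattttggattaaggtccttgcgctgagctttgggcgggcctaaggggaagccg
Ndufb11, chrX:20617620-20617869: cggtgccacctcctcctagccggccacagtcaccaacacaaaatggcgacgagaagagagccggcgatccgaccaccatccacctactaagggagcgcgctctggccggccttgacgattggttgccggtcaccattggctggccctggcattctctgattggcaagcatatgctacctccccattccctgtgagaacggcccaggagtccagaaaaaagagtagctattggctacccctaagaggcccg

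Windows of 300 bases, from 250 before to 50 after the start, were found for 67 of the 81 genes and searched on both strands for exact letters. GCATGCGC was present in 10 (14.9%), against 5.99% of the 10113 tested genes with such a window and 3.05% of all 27025 genes with a window. AAGATGGCG was present in 7 (10.4%, against 3.60% of tested genes), CCGGAAGT, the letters of ETS factors such as GABP, in 4 (5.97% against 9.30%), and TCAAGGTCA, those of ERRalpha, in 2, *Sdhd* and *Atp5g3* (2.99% against 0.326%). In WT from 0 to 9 hr, 1 of the 10 genes with the NRF1 letters was called higher (*Cycs*) and 2 lower, and of the 7 with the YY1 letters 1 was called higher (*Ndufs4*) and 0 lower. Of all 81 subunits 11.1% were called higher and 18.5% lower, and of all tested genes 35.9% and 35.5%, so these few genes are given as a description.

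The first comparison asks how the subunit mRNAs changed with LPS in WT cells. At 9 hr, 9 of 81 rose and 15 fell relative to 0 hr at an adjusted p under 0.05 (limma, adjusted over 13103 tested genes), while of all tested genes 35.9% rose and 35.5% fell. The median difference of the 81 was −0.07 and the median absolute difference 0.18, against 0.41 over all tested genes. The rises were led by *Cycs*, *Ndufs4* and *Atp5b* and the falls by *Cox6b2*, *Cox7a2l* and *Ndufb11*. With the length trend removed, 18 rose and 28 fell (22.2% and 34.6%, against 40.3% and 37.1% of all genes tested in that setting). The split moved with the scaling: after quantile normalization 7 rose and 41 fell, with a median of −0.255. In that setting 50.6% of the subunits fell, against 35.4% of tested genes, whereas in the deposited values the subunits' share of falls (18.5%) was below that of tested genes. The median was −0.117 without mouse 25, −0.110 without mouse 69, −0.007 without mouse 87 and −0.035 without mouse 88. Without mouse 87 or mouse 88 the number that fell was 9 or 6, without a filter on low genes it was 9, and the fit with the mouse as a block called 13 and 18.

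*Cycs*, whose product carries electrons from complex III to complex IV and activates caspases when released, was at 5.58, 5.63, 5.88 and 5.64 in the WT mice at 0 hr and at 6.70, 6.81, 6.71 and 6.65 at 9 hr. The groups did not overlap, and the difference was 1.04 (SE 0.10, adjusted p = 1.32e-08). *Cycs* was higher at 6 hr, where all 4 WT values lay between 7.06 and 7.12, than at 9 hr. Its differences from 0 hr were 0.34 at 1 hr (adjusted p = 0.0123), 0.99 at 3 hr (2.87e-08) and 1.41 at 6 hr (6.98e-11). Of its transcript, 28.5% of the 50-base stretches also occur in transcripts of other genes, so its level is uncertain; *Cycs* is known to have processed copies in the genome.

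*Ndufs4*, an accessory subunit needed to complete complex I, went from 10.04, 10.10, 10.42 and 10.20 at 0 hr to 10.75, 10.96, 10.85 and 10.71 at 9 hr. Every WT mouse was higher at 9 hr, by 0.63 in the mean (SE 0.12, adjusted p = 5.93e-05), and the difference at 6 hr was 0.71 (1.06e-05). It shares no 50-base stretch with another gene. The rise of *Ndufs4* at 3 hr was 0.29 (adjusted p = 0.0329), and it did not pass without mouse 25 (0.19, adjusted p = 0.264) or mouse 69 (0.30, 0.0571).

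The other 7 rises at 9 hr were spread over complexes II to V. *Atp5b*, the catalytic beta subunit, was at 13.88 to 14.08 at 0 hr and at 14.45 to 14.54 at 9 hr in the WT mice (difference 0.51, SE 0.05, adjusted p = 1.18e-08), again without overlap. *Atp5a1*, the alpha subunit, rose by 0.24 (adjusted p = 0.000285), *Atp5f1*, of the stator stalk, by 0.33 (0.000472), *Cyc1*, cytochrome c1 of complex III, by 0.28 (0.000153), *Uqcrc2*, a core protein of complex III, by 0.23 (0.00152), *Cox5a* of complex IV by 0.34 (0.0102) and *Sdhd*, a membrane anchor of complex II, by 0.30 (0.0146). These directions depend on the scaling, except for *Sdhd* (0.61) and *Cyc1* (0.08): after quantile normalization the difference at 9 hr was −0.08 for *Atp5b*, −0.39 for *Atp5a1*, −0.04 for *Atp5f1*, −0.06 for *Uqcrc2* and −0.07 for *Cox5a*. *Cycs* and *Ndufs4* kept theirs (1.31 and 0.51). *Cox5a* did not pass without mouse 25 (0.30, adjusted p = 0.0554) or mouse 69 (0.27, 0.0738). *Atp5f1*, *Cox5a* and *Uqcrc2* share 37.6%, 32.0% and 24.2% of their 50-base stretches with other genes, and their levels are uncertain.

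Among the falls, *Cox7a2l*, which joins complexes III and IV into supercomplexes, was at 11.41, 11.46, 11.85 and 11.54 at 0 hr and at 10.85, 10.99, 10.96 and 10.65 at 9 hr in the WT mice. *Ndufb11*, an X-linked membrane subunit of complex I, was at 10.83, 10.85, 11.33 and 10.99 at 0 hr and at 10.31, 10.37, 10.38 and 10.20 at 9 hr. Neither gene had overlapping groups, and the differences were −0.70 (SE 0.12, adjusted p = 1.88e-05) for *Cox7a2l* and −0.68 (SE 0.13, 8.58e-05) for *Ndufb11*. Their levels are uncertain too, since 17.8% and 17.5% of their 50-base stretches occur in other genes. Both were already at this level at 6 hr (−0.70 and −0.63), and both were near their starting level at 3 hr (−0.13 each, adjusted p = 0.320 and 0.382). *Cox6b2*, an isoform known from testis, is a low gene here (4.79 to 5.06 at 0 hr, 3.56 to 3.92 at 9 hr) and fell by 1.18 (SE 0.18, adjusted p = 5.77e-06). *Atp5s* was at 6.48 to 6.52 at 0 hr, 5.21 to 5.35 at 6 hr and 5.61 to 5.98 at 9 hr, and its fall was larger at 6 hr (−1.22, adjusted p = 2.60e-10) than at 9 hr (−0.68, 2.05e-06). *Atp5g2*, a gene for the c subunit of ATP synthase, fell by 0.45 at 9 hr (adjusted p = 0.00872), a call that was lost without mouse 87 (−0.31, 0.125) and after quantile normalization (−0.19, 0.226), and 38.3% of its 50-base stretches are shared. The other 2 genes for the same protein did not pass, *Atp5g1* at 0.02 (adjusted p = 0.866) and *Atp5g3* at 0.13 (0.315).

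**Figure D2:**
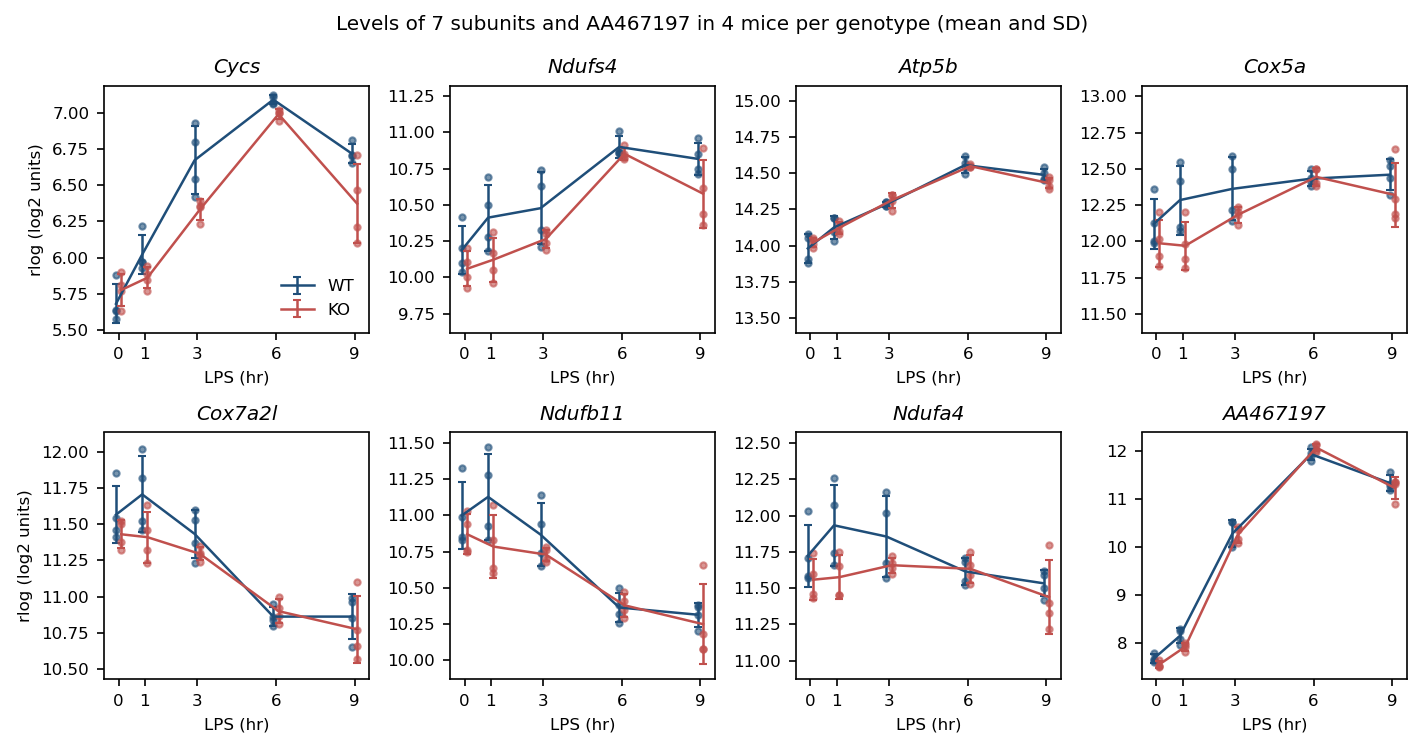
Each panel shows the rlog level (log2 units) of 1 gene against hours of LPS, with a point for each mouse and lines with bars for the mean and SD of 4 WT or 4 KO mice. The panels of subunits span the same height and that of AA467197 a larger one. Cycs, Ndufs4, Atp5b and Cox5a lie higher at 9 hr than at 0 hr in WT, Cox7a2l and Ndufb11 lower, and Ndufa4 within the spread of the mice, while AA467197 goes from 7.67 to 11.33 in the WT mean.

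By complex, the calls at 9 hr in WT divided unevenly, while of all tested genes 35.9% rose and 35.5% fell. Of the 36 genes of complex I, 1 rose (*Ndufs4*) and 10 fell, 27 had a negative difference and the median was −0.15. Both shares of complex I were below those of tested genes, that of rises by more. The falls were in accessory subunits of the membrane arm, such as *Ndufb11*, *Ndufb10* (−0.42) and *Ndufb8* (−0.39), in accessory subunits of the matrix arm, *Ndufa6* (−0.39) and *Ndufa5* (−0.31), and in *Ndufs8* (−0.34), a core subunit with iron-sulfur clusters. The other core subunits named here did not pass: *Ndufs1* was at 0.06 (adjusted p = 0.237), *Ndufv1* at −0.04 (0.687) and *Ndufv2* at −0.05 (0.701). Of complex II, 1 of 4 rose and 0 fell (*Sdha*, the flavoprotein, 0.08, adjusted p = 0.0806; *Sdhb* 0.12, 0.282; *Sdhc* −0.07, 0.230). Of complex III, 2 of 8 rose and 0 fell (median 0.09), of complex IV 1 of 15 rose and 3 fell (median −0.01, *Cox7a1* being the third at −0.43), and of complex V 3 of 17 rose and 2 fell (median −0.06). With the length trend removed, complex I had 4 rises and 17 falls and complex III 4 rises and 2 falls. Of all genes tested in that setting 40.3% rose and 37.1% fell, so the share of falls in complex I was above the background there. Quantile normalization kept complex I on the side of falls (2 rises and 18 falls) but turned complexes II, III and V to falls. The counts were 1 rise and 3 falls in complex II, 0 and 4 in complex III, 2 and 8 in complex IV and 1 and 8 in complex V. After this normalization 34.8% of tested genes rose and 35.4% fell, and the share of falls was above that in each complex. Among the genes of complex III, *Uqcrfs1*, the Rieske iron-sulfur protein, had another course, with differences of 0.24 at 3 hr (adjusted p = 0.00376), 0.26 at 6 hr (0.00135) and −0.06 at 9 hr (0.394), and after quantile normalization of −0.06, −0.17 and −0.32. *Uqcrc1*, *Cox4i1*, *Cox6a1* and *Cox7a2* did not pass at 9 hr (0.16, −0.18, −0.09 and 0.04; adjusted p = 0.0865, 0.309, 0.569 and 0.763), and neither did *Cox6a2*, an isoform known from heart and muscle (0.33, 0.153).

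**Figure D3:**
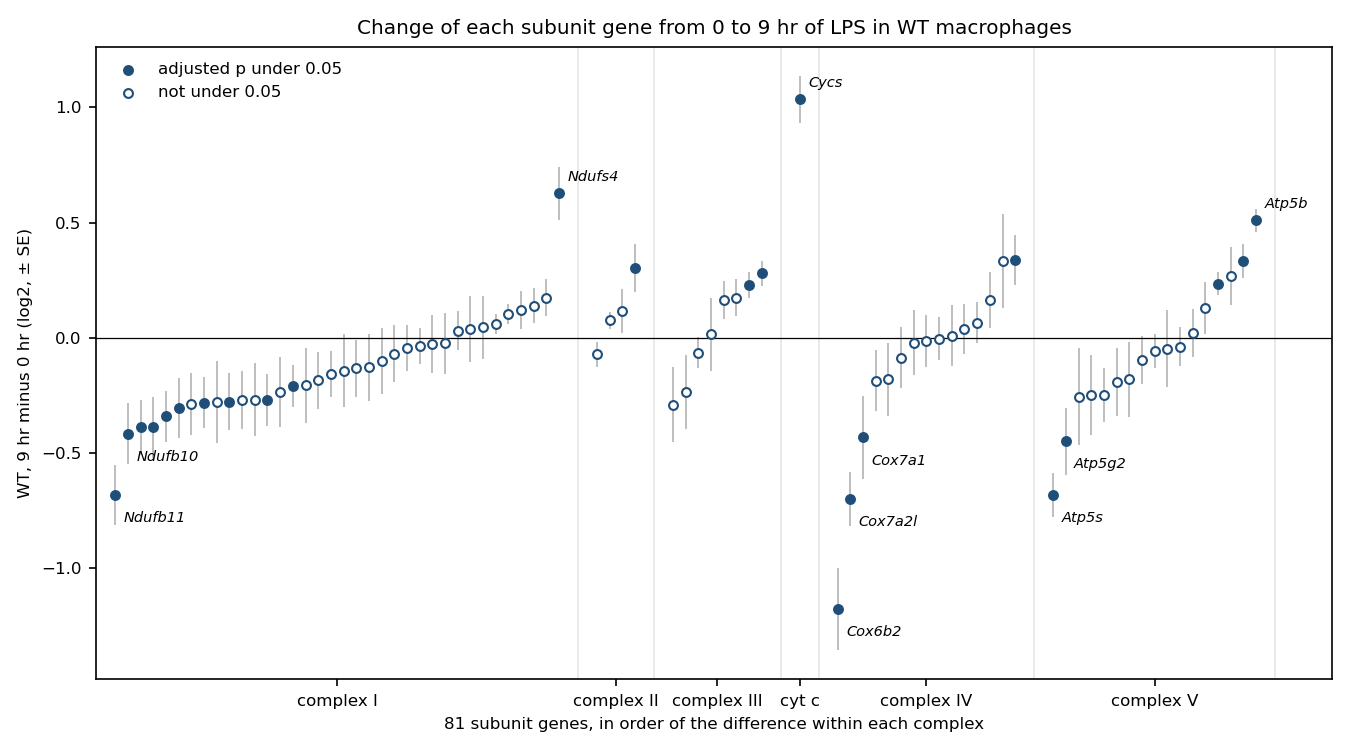
The vertical axis gives the log2 difference of 9 hr and 0 hr in WT for each of 81 subunit genes with its SE, grouped by complex and ordered within it; filled points have a limma adjusted p under 0.05. Complex I has 10 filled points below 0 and 1 above, while Cycs (1.04), Ndufs4 (0.63) and Atp5b (0.51) stand highest.

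At 1 and 3 hr fewer subunit genes were called than at 9 hr, and at 6 hr more. The same order held over all tested genes, of which 33.9%, 67.8%, 77.9% and 71.5% were called at 1, 3, 6 and 9 hr. At 1 hr in WT, 4 rose (*Cycs*, *Atp5b*, *Atp5a1* and *Uqcrfs1*) and 0 fell (0 also at an unadjusted p under 0.05), against 17.3% and 16.6% of tested genes. The median was 0.14, and 0.00 with the length trend removed, when 2 rose and 5 fell, and quantile normalization gave 2 and 3 (*Atp5b* −0.20, *Atp5a1* −0.19). Of all genes tested with the length trend removed, 16.9% rose and 22.9% fell, and after quantile normalization 14.5% and 23.6%. The count of 4 was 0 without mouse 25 or 69, 1 without mouse 88 and 10 with the mouse as a block. At 3 hr, 9 rose and 2 fell (*Atp5s* and *Cox6b2*), against 32.5% and 35.3%. The 9 were *Cycs*, *Atp5b* (0.31), *Ndufs4*, *Atp5a1* (0.27), *Cyc1* (0.25), *Uqcrfs1*, *Cox6c*, *Atp5f1* and *Uqcrc2*. Here too the scaling moved the split, to 7 and 28 after quantile normalization (*Atp5b* −0.29, *Atp5a1* −0.31, *Atp5f1* −0.20, *Uqcrc2* −0.12, *Uqcrfs1* −0.06, *Cox6c* −0.05) and to 12 and 23 with the length trend removed, and the block gave 12 and 4. Of tested genes 28.6% rose and 39.5% fell after quantile normalization, where 34.6% of the subunits fell. With the length trend removed, 32.9% of all genes tested in that setting rose and 41.1% fell, against 14.8% and 28.4% of the subunits. Without mouse 25, 4 rose and 1 fell and the median was −0.026 in place of 0.07, without mouse 88 the median was 0.14, and without mouse 69 the number that fell was 1. At 6 hr, 15 rose and 14 fell, against 38.7% and 39.2% of tested genes, with a median of −0.10 (−0.02 without mouse 87). Removal of the length trend gave 22 and 32, and quantile normalization 8 and 51, so that 63.0% of the subunits fell in the latter, against 41.4% of tested genes. With the length trend removed, 27.2% of the subunits rose and 39.5% fell, against 40% and 42.3% of all genes tested in that setting.

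In KO cells, whose libraries share no mouse with WT, the same comparison gave 1 rise (*Atp5b*, 0.10, and −0.23 after quantile normalization) and 1 fall (*Atp5s*) at 1 hr, against 23.8% and 20.0% of tested genes. There were 13 rises and 2 falls at 3 hr (against 34.4% and 37.0%), 23 and 12 at 6 hr (39.0% and 40.1%), and 13 and 15 at 9 hr (36.4% and 36.3%). After quantile normalization these counts were 0 and 24, 10 and 31, 13 and 41, and 10 and 43, so that 29.6%, 38.3%, 50.6% and 53.1% of the subunits fell, against 30.4%, 41.9%, 41.2% and 37.1% of tested genes. Removal of the length trend gave 2 and 16, 13 and 25, 27 and 33, and 19 and 32 (19.8%, 30.9%, 40.7% and 39.5% lower, against 28.3%, 42.9%, 42.5% and 38.4%). Without mouse 2, whose library at 9 hr stood highest, 37 fell at 9 hr (45.7%, against 36.4% of tested genes). With all mice the share of falls at 9 hr was 18.5%, against 36.3%, so 1 mouse moved it from below to above the background. At 1 hr 8 fell without mouse 2 (9.88% against 20.4%). Without mouse 55 or mouse 62 the falls at 9 hr were 7 or 8. The block called 2 falls at 1 hr. The single rise at 1 hr was lost without each mouse in turn. At 3 hr the rises were 8 without mouse 3 or mouse 62 and the falls 1 without mouse 3 or mouse 55, and at 6 hr the falls were 7 without mouse 55.

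Most subunit genes called in WT at 6 and 9 hr were also called in KO. In KO 79.1% of all tested genes were called at 6 hr and 72.7% at 9 hr, in either direction. The overlap over all tested genes was not counted, so the shares below are a description and not a trait of the subunits. At 9 hr, 9 genes were called higher in both, which is 100.0% of the 9 of WT and 69.2% of the 13 of KO, and 11 were called lower in both, 73.3% of the 15 of each. At 6 hr, 14 were called higher in both (93.3% of the 15 of WT and 60.9% of the 23 of KO) and 10 lower in both (71.4% of 14 and 83.3% of 12), and at no time was a gene called in opposite directions. Across the 81 genes, the differences of 9 and 0 hr in WT and in KO correlated with r = 0.96 (Spearman rho 0.96), a description over genes that share libraries and transcript length. In KO at 9 hr, *Ndufs4* rose by 0.52 (adjusted p = 3.34e-05), *Atp5b* by 0.41 (9.17e-10; −0.14 after quantile normalization), and *Cox7a2l* and *Ndufb11* fell by 0.66 and 0.62 (1.73e-06 and 3.49e-05). *Cycs* rose by 0.60 (2.13e-05), from 5.81, 5.77, 5.90 and 5.63 to 6.71, 6.47, 6.21 and 6.10.

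The second comparison asks whether loss of CPEB4 changed the subunit mRNAs. At 0 hr, 0 of 81 were higher and 0 lower in KO (limma adjusted p under 0.05), against 0.588% and 0.458% of tested genes, and at an unadjusted p under 0.05, 0 were higher and 13 lower. At 1 hr the counts were again 0 and 0 (background 0.923% and 0.916%; 0 and 62 unadjusted), and at 3 hr 0 and 0 (1.76% and 1.84%; 0 and 18 unadjusted). At 6 hr 0 were higher and 1 lower (6.36% and 9.89%; 0 and 7 unadjusted), and at 9 hr 0 and 0 (4.56% and 3.16%; 0 and 5 unadjusted).

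Although few genes passed, most differences had the same sign. The median of KO minus WT was −0.15 at 0 hr (77 of 81 negative), −0.34 at 1 hr (80 of 81), −0.18 at 3 hr (77), −0.05 at 6 hr (61) and −0.14 at 9 hr (79), whereas over all tested genes it lay between −0.02 and 0.02. The other short genes moved with it: the 1632 genes under 1500 nt outside the 81 had medians of −0.10, −0.22, −0.11, −0.02 and −0.09, and the 6236 genes of at least 3000 nt had 0.05, 0.12, 0.05, −0.02 and 0.06. With the length trend removed, the median over the subunits was −0.06, −0.12, −0.07, −0.04 and −0.09. Within batch 1 and batch 2 the medians were −0.16 and −0.16 at 0 hr, −0.41 and −0.27 at 1 hr, −0.12 and −0.23 at 3 hr, 0.00 and −0.08 at 6 hr and −0.22 and −0.06 at 9 hr. Single libraries decided the counts. Without WT mouse 69, 42 were lower in KO at 1 hr (8.67% of tested genes were), and without KO mouse 2 it was 3 (2.12%). Without WT mouse 88, 39 were lower at 3 hr (8.91%), and without KO mouse 2, 62 were lower at 9 hr (16.6%). A fit to all 40 libraries called 65 lower at 1 hr (15.1%). Leaving out WT mouse 87 gave medians of −0.07 (0 hr), −0.10 (3 hr) and −0.026 (6 hr). It was −0.022 without KO mouse 55 at 6 hr, and at 9 hr −0.233 without KO mouse 2 and −0.084 without KO mouse 62. Of the 8 macrophage markers, 0, 1, 2, 4 and 3 were called lower in KO from 0 to 9 hr and 0 higher. Against 0.916%, 1.84%, 9.89% and 3.16% of tested genes at 1, 3, 6 and 9 hr, this is 12.5%, 25%, 50% and 37.5% of the markers. Their summed level was lower in KO without overlap at each time (18.65 to 18.91 against 18.98 to 19.29 at 0 hr), but most of this linear sum is *Lyz2* (17.80 to 18.25 in KO and 18.30 to 18.75 in WT at 0 hr). *Adgre1* (15.52 to 15.64 and 15.57 to 15.70) and *Itgam* (14.42 to 14.57 and 14.12 to 14.47) overlapped at 0 hr, and the median difference of the 8 was −0.10. The part of the markers and of transcript length in the differences of the subunits was not tested.

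**Figure D4:**
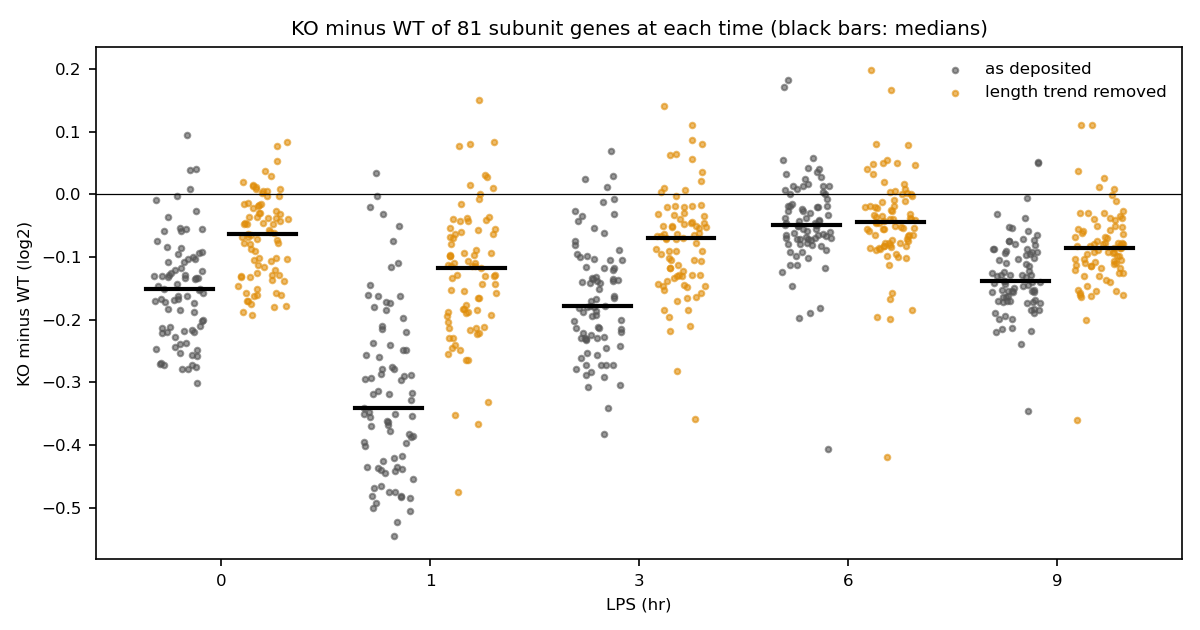
Each point is the KO minus WT difference (log2) of 1 of 81 subunit genes at the hour of LPS on the horizontal axis, from the rlog values as deposited (grey) or with each library's transcript length trend removed (orange), and black bars are medians. The grey median is lowest at 1 hr (−0.34), and removal of the trend brings it to −0.12.

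*Ndufa5*, an accessory subunit of the matrix arm of complex I, was the single gene called at 6 hr. It was at 9.80, 9.81, 9.94 and 9.79 in WT and at 9.67, 9.57, 9.57 and 9.78 in KO, a difference of −0.19 (SE 0.06, adjusted p = 0.0422), with KO mouse 62 just below WT mouse 88 and the groups otherwise apart. The call was lost with batch as a covariate (adjusted p = 0.0635), after quantile normalization (0.0711), without a filter (0.181), in eBayes without trend (0.0853), in fits to all 40 libraries (0.312 and 0.330) and without any 1 of 7 mice (0.0604 to 0.117). With the length trend removed, 4 genes were lower in KO at 6 hr (*Ndufa1*, *Ndufa3*, *Ndufa5* and *Ndufa6*), 5 at 1 hr (*Ndufa1*, *Ndufa3*, *Ndufa5*, *Ndufa13* and *Uqcr10*) and 4 at 9 hr (*Ndufa1*, *Ndufa3*, *Atp5f1* and *Cox6b1*), all named after their values were seen. Of all genes tested in that setting, 11.7%, 3.03% and 10.3% were lower at 6, 1 and 9 hr, so the shares of the subunits (4.94%, 6.17% and 4.94%) were below the background at 6 and 9 hr. *Ndufa3* and *Ndufa1*, small membrane subunits of complex I, thus passed at 3 of the 5 times in that setting, whereas in the deposited values their differences were −0.50 and −0.48 at 1 hr (adjusted p = 0.0753 and 0.076).

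The change from 0 hr was also compared between the genotypes directly. It differed in 0 of 81 genes at 1, 3, 6 and 9 hr (limma, against 0.00763%, 0.206%, 2.94% and 1.76% of tested genes), and at an unadjusted p under 0.05 in 0, 1, 0 and 2 genes. The largest at 9 hr was *Cycs*, whose change to 9 hr was smaller in KO by 0.44 (SE 0.14, unadjusted p = 0.00369, adjusted p = 0.108). With the mouse as a block this gene passed at 9 hr, as 1 of 81 (adjusted p = 0.0350). At 9 hr itself *Cycs* lay from 6.65 to 6.81 in WT and from 6.10 to 6.71 in KO, and KO mouse 2 was within the WT range (difference −0.35, adjusted p = 0.118).

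Genes that act on the same machinery, taken from lists, were examined beside the subunits. *AA467197* (chromosome 2, 122636986 to 122641191) is the mouse gene for a small protein that takes the place of NDUFA4 in complex IV of inflamed cells. It was at 7.59 to 7.79 at 0 hr in WT, 10.00 to 10.52 at 3 hr, 11.79 to 12.07 at 6 hr and 11.17 to 11.55 at 9 hr, with no overlap between 0 hr and these times (difference at 9 hr 3.66, SE 0.11, adjusted p = 1.40e-16), and in KO the difference at 9 hr was 3.68 (1.60e-18). *Ndufa4* was at 11.57, 11.58, 12.03 and 11.71 at 0 hr and at 11.50, 11.62, 11.59 and 11.42 at 9 hr in WT, groups that overlapped (−0.19, SE 0.13, adjusted p = 0.216). With the length trend removed its difference was −0.16 (0.00239), and after quantile normalization −0.55 (0.0012). *Atpif1*, the inhibitor of ATP synthase, fell by 0.71 in WT at 9 hr without overlap (adjusted p = 3.32e-05) and by 0.66 in KO at 9 hr. Between the genotypes neither gene passed at any time (adjusted p of at least 0.114 for *AA467197* and 0.0963 for *Atpif1*), except that after quantile normalization *AA467197* was called higher in KO at 6 hr (0.17, adjusted p = 0.0457; 0.14 and 0.141 as deposited).

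Of 46 assembly factors, which build the complexes without staying in them, 17 rose and 11 fell at 9 hr in WT (22 and 5 after quantile normalization), with a median of 0.00, and 14 rose and 11 fell in KO. In WT this is 37.0% and 23.9% of the list, against 35.9% and 35.5% of tested genes, so in the deposited values the share of rises was near the background. In KO it is 30.4% and 23.9%, against 36.4% and 36.3%. After quantile normalization 34.8% of tested genes rose and 35.4% fell in WT. The list's 22 rises of 46 were above that share and its 5 falls below it. *Ndufaf7* and *Cmc2*, factors for complexes I and IV, fell by 1.74 and 1.60, and *Coa5* and *Cox18*, factors for complex IV, rose by 1.35 and 1.15. Of 11 regulators of mitochondrial biogenesis, 6 rose and 1 fell at 9 hr (7 and 1 after quantile normalization) and 6 rose and 2 fell at 3 hr (6 and 4), against 35.9% and 35.5% of tested genes at 9 hr and 32.5% and 35.3% at 3 hr. *Esrra*, which encodes ERRalpha, rose by 1.13 at 9 hr and *Pprc1*, a coactivator, by 0.68, while *Ppargc1b*, another coactivator, rose by 2.03 at 3 hr and by 0.25 at 9 hr. *Yy1* rose by 0.41 at 9 hr.

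Of the 13 subunits encoded by mitochondrial DNA, 11 were above the limit, and 5 rose and 0 fell at 3 hr (against 32.5% and 35.3% of tested genes) and 0 rose and 7 fell at 9 hr (35.9% and 35.5%) in WT, with a median at 9 hr of −0.35, and of −0.873 after quantile normalization. *ND1* fell by 0.57, *ND2* by 0.54, *ND3* by 0.57 and *CYTB* by 0.42, against a median of −0.07 over the nuclear subunits. In KO 8 of the 11 fell at 9 hr (median −0.42) and 0 rose, against 36.3% and 36.4% of tested genes. The rises at 3 hr depend on the scaling. After quantile normalization there were 4 rises and 6 falls (28.6% and 39.5% of tested genes), and with the length trend removed 1 rise (32.9%). In KO limma called 0 rises at 3 hr (median 0.095), against 34.4% of tested genes. At 9 hr in WT, 6 fell and 0 rose both after quantile normalization and with the length trend removed. In these settings 35.4% and 37.1% of the genes tested fell. The libraries were made from poly(A) RNA, and *COX2*, *ATP6* and *COX3* had far lower values (means under 4) than *COX1* and *CYTB*. The part of the library type in the result was not tested.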

How the data were processed

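RNA-seq was done on poly(A) RNA of 40 BMDM libraries. Per the labels and methods, the authors aligned reads with STAR 2.3.0e to mm10, counted them per gene with featureCounts and deposited log2 values, the rlog of DESeq2, for 27179 genes, on one scale for all libraries and between −2.4 and 19.39. Read counts are not in the table, so the depth of each library is unknown here and no counting interval is given, and rlog shrinks the differences of low genes.

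Genes whose rlog averaged 2.32 (log2 of 5) or more, 13103 in number, were tested with limma 3.58.1 (R 4.3.3; lmFit and eBayes with trend), and p-values were adjusted over all of them by Benjamini-Hochberg with a threshold of 0.05. LPS contrasts used the 20 libraries of one genotype, genotype contrasts the 8 libraries of one time, and differences of change all 40. All adjusted p-values in the text are from this tool. The subunits, the lists of assembly factors, regulators, mitochondrial genes and cell type markers, and the tests were chosen with earlier results of these data known. Genes named are the 5 largest rises and falls called in WT at 3 and 9 hr, those called between genotypes, and a list of core subunits and tissue isoforms, plus, for the gene lists, up to 4 examples of the largest differences; others are named where few were called.

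Each mouse gave all 5 times, so mouse numbers pair the libraries: deviations from the group means had a median correlation of 0.29 between libraries of one mouse (over 0.1 in 68 of 80 pairs) and −0.09 between mice. For LPS contrasts and differences of change, the mouse was used as a block in an alternative, as a fixed effect in the model. For genotype contrasts in all 40 libraries, an alternative used a common correlation within mice instead (statmod 1.5.0, consensus correlation 0.23). Other alternatives were quantile normalization, batch as a covariate, no filter, another filter, eBayes without trend, fewer or more libraries, each mouse left out, and, chosen after the data were seen, a spline in log2 transcript length removed from each library. Libraries of a group correlated with r from 0.992 to 0.998 and 0 pairs were identical. On simulated data over 13103 genes, 84 of 100 genes changed by 0.5 and 43 of 100 changed by 0.25 were recovered for WT at 9 hr, and 96 and 48 for KO against WT at 6 hr. The changed genes were drawn from those with higher mean levels, and the noise was independent between genes. Only 100 genes were changed by each size, whereas in the deposited values limma called 71.5% of tested genes for WT at 9 hr. For KO against WT at 6 hr it called 16.3%. An adjusted p depends on how many other genes change, so recovery at these shares was not tested. The rates of recovery also need not hold for low genes such as *Cycs*, or for genes whose deviations move together, as those of the subunits did. Transcript lengths and 50-base stretches shared with other genes come from GENCODE M21 on mm10. Summaries used Python 3.11.15, numpy 2.4.6, pandas 2.3.3 and matplotlib 3.10.9.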

Additional observations from a re-analysis of the deposited data

Results flagged for a closer look

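Among 130 groups of 4 libraries of named genes, 5 held a library far from the other 3 (its gap to the nearest over the whole range was above Dixon's critical value), and chance gives about 1 in 20. *Cycs* was at 6.22 in WT mouse 87 at 1 hr, against 5.93 to 5.97 in the others, and this library also stood high in the subunits as a whole (0.30). *Ndufs4* was at 11.01 in WT mouse 88 at 6 hr, against 10.86 to 10.87. *Sdhd* was at 6.70 in KO mouse 55 at 3 hr, against 6.54 to 6.55. *AA467197* was at 7.64 in KO mouse 2 at 0 hr, against 7.50 to 7.51, and at 10.89 in KO mouse 62 at 9 hr, against 11.30 to 11.35.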

How the results depend on the processing

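Of the alternative values for the counts and medians of the subunits, 384 stayed near the main value and 92 moved; of those for the 18 largest changes named by rule, 155 kept direction and call, 26 lost the call and 5 turned. Depth is unknown, which limits what can be said of low genes such as *Cox6b2*, whose rlog differences are shrunken.

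After quantile normalization, *Atp5b* was at −0.078 at 9 hr and −0.29 at 3 hr in WT, *Cox5a* at −0.074, *Atp5f1* at −0.041 (9 hr) and *Atp5a1* at −0.31 (3 hr). Numbers higher and lower in WT became 2 and 3 at 1 hr, 7 and 28 at 3 hr, 8 and 51 at 6 hr and 7 and 41 at 9 hr, with medians of −0.181, −0.387 and −0.255 at 3, 6 and 9 hr. In KO they became 0 and 24, 10 and 31, 13 and 41, and 10 and 43, with medians of −0.17, −0.14 and −0.22 at 1, 3 and 6 hr, and 0 were lower in KO than in WT at 6 hr. The cause was not tested.

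With the length trend removed, they were 2 and 5, 12 and 23, 22 and 32, and 18 and 28 in WT and 2 and 16, 13 and 25, 27 and 33, and 19 and 32 in KO (medians −0.041 and −0.053 at 3 and 6 hr), and 5, 4 and 4 were lower in KO than in WT at 1, 6 and 9 hr (median −0.12 at 1 hr).

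With the mouse as replicate block, 10 were higher at 1 hr and 4 lower at 3 hr in WT, 2 lower at 1 hr in KO, and 1 gene differed in change to 9 hr; it moved no other count by over 1.5 times. In all 40 libraries, with or without the common correlation within mice, 65, 1, 0 and 2 were lower in KO at 1, 3, 6 and 9 hr. With batch as a covariate, 0 and 2 were lower in KO at 6 and 9 hr. Without a filter, 9 were lower in WT at 9 hr, 2 higher at 1 hr and 1 lower at 3 hr in KO, and 0 lower in KO than in WT at 6 hr. In only the 8 libraries of each pair of times, WT had 1 rise at 1 hr and 22 falls at 6 hr, and KO had 2 falls at 1 hr and 23 rises with 7 falls at 3 hr.

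Leaving out 1 mouse, the range of rises in WT was 0 to 3 at 1 hr and 4 to 10 at 3 hr, and of falls 1 to 2 at 3 hr and 6 to 13 at 9 hr. In KO rises were 0 at 1 hr and 8 to 19 at 3 hr, and falls 0 to 8, 1 to 2, 7 to 14 and 7 to 37. Genes lower in KO than in WT numbered 0 to 42, 0 to 39, 0 to 1 and 0 to 62 at 1, 3, 6 and 9 hr.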
